A study of Bos taurus with 6 samples.

Results

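Retinoic acid, the active form of vitamin A, acts in the nucleus. Retinol enters cells through the membrane receptor STRA6, retinol dehydrogenases such as RDH10 turn it into retinal, and retinal dehydrogenases such as ALDH1A1 turn retinal into retinoic acid. The small cytosolic proteins CRABP1 and CRABP2 bind retinoic acid, and CRABP2 is known for delivering it to the nuclear receptors RARA, RARB and RARG, which bind DNA as pairs with a retinoid X receptor such as RXRA or RXRB. Retinoids are added to culture media in studies of bovine oocyte maturation. Retinoic acid has been proposed to start meiosis in germ cells of the fetal mouse ovary.

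The 9 genes described here are the carriers CRABP2 and CRABP1, the uptake receptor STRA6, the enzymes RDH10 and ALDH1A1, and the receptors RARA, RARG, RXRA and RXRB, found by symbol among the 17325 genes of the files. RNA was measured in bovine oocytes that had reached metaphase II in culture, with 3 libraries labelled MTFP1 knockdown and 3 labelled negative control, and the design holds this single comparison. Both groups share the in vitro maturation, and the labels give no breed, animal age, number of oocytes per library or delivery of the knockdown agent. CRABP2 was chosen by its FPKM difference between the groups, which had one of the smallest p-values of this series, and the other 8 genes were added for their roles with the results known, so the differences of the 9 genes are descriptions with no test.

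Values are FPKM, in which the fragments of a gene are divided by its transcript length and by the mapped fragments of the library, so that levels can be set side by side between genes. The targeted gene MTFP1 had 0.43, 0.58 and 1.15 FPKM in the libraries labelled knockdown 1, 2 and 3, against 0.53, 0.55 and 0.05 FPKM in those labelled control 1, 2 and 3. Its mean was therefore not lower in the libraries labelled knockdown, but at 0.548 FPKM over the 6 libraries it lay too near 0 to judge the knockdown. Every direction below is that of the labels. The 8 oocyte markers examined had summed levels of 20990 to 21620 FPKM in knockdown libraries and 20980 to 22100 FPKM in control libraries. Of 20 markers of cumulus and granulosa cells, the somatic cells around the oocyte, 13 had a mean of at least 1 FPKM over the 6 libraries, and 13 had a higher mean in knockdown libraries. Their summed level ran from 222.4 to 1184 FPKM in knockdown libraries and from 181.9 to 382.5 FPKM in control libraries, with 955 FPKM of TIMP1, a protease inhibitor, in knockdown 2. Of the 13 tested, 10 were higher and 3 lower in mean log2 value in knockdown libraries, with 0 past the adjusted threshold. Among all 9730 tested genes, 5275 were higher and 4455 lower. At an unadjusted limma p under 0.05, 3 of the 13 markers, or 23.1%, were higher and 0 lower. Over all tested genes that share was 6.53% in either direction, with 376 higher and 259 lower. The 3 were the protease inhibitor SERPINE2, the matrix protein SPARC and the inhibin subunit INHA, and the groups of SPARC and INHA overlapped. The marker TNFAIP6 had the lowest difference, -1.36 in log2 (SE 0.61), and its groups overlapped. SERPINE2 averaged 28.6 ± 13.0 FPKM in knockdown libraries and 14.5 ± 1.69 FPKM in control libraries (SD, n = 3 each), without overlap. The hyaluronan synthase HAS2 and the steroidogenic protein STAR were at means of 41.5 and 65.7 FPKM over the 6 libraries, while the follicle-stimulating hormone receptor FSHR was listed at 0 in every library except control 3, at 0.02 FPKM. In such bulk libraries, fewer cells of a type and less RNA per cell cannot be told apart. Separate cultures or animals are not stated for the replicates, so errors and p-values cover only the spread between these libraries, which may be technical.

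CRABP2 (NCBI gene ID 493998) was the most abundant of the 9 genes on average and the only one of them whose groups did not overlap. It had 123.88, 103.89 and 78.67 FPKM in knockdown libraries 1, 2 and 3, against 47.18, 35.27 and 33.61 FPKM in control libraries 1, 2 and 3. Every knockdown library lay above every control library, and the lowest knockdown value was that of knockdown 3. CRABP2 averaged 102 ± 22.7 FPKM in knockdown libraries and 38.7 ± 7.40 FPKM in control libraries (SD, n = 3 each), a ratio of means of 2.64. The fitted difference was 1.37 (SE 0.20) in log2(FPKM + 1), a scale on which changes of low genes come out smaller. The difference was 1.22, 1.35 and 1.54 without knockdown 1, 2 and 3, and 1.52, 1.31 and 1.28 without control 1, 2 and 3.

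CRABP1, the paralog of CRABP2 (gene ID 282201), was listed at 0 in 5 of the 6 libraries. Its remaining value was 0.26 FPKM in knockdown 1, far below the 123.88 FPKM of CRABP2 in the same library. FABP5, a fatty acid binding protein that also carries retinoic acid, was more abundant than CRABP2 in every library. It had 223.23, 209.94 and 226.78 FPKM in knockdown libraries and 228.18, 233.28 and 279.36 FPKM in control libraries, and its groups did not overlap, with the knockdown libraries lower. The ratio of CRABP2 to FABP5 within a library, which a single scaling factor per library cannot alter, was 0.555, 0.495 and 0.347 in knockdown libraries and 0.207, 0.151 and 0.120 in control libraries. FABP5 averaged 220.0 ± 8.88 FPKM in knockdown libraries and 246.9 ± 28.2 FPKM in control libraries (SD, n = 3 each). Its log2 difference of -0.16 (SE 0.13) did not pass the test across all genes (limma with Benjamini-Hochberg adjustment, adjusted p = 0.889).

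The uptake receptor STRA6 (gene ID 515911) was low and variable. It had 2.23, 4.65 and 0.78 FPKM in knockdown libraries, against 3.02, 0.58 and 0.71 FPKM in control libraries. The groups overlapped, with 1 knockdown and 2 control libraries under 1 FPKM and the highest value in knockdown 2. Its log2 difference was 0.53 (SE 0.46), and it was 0.11 without knockdown 2, 0.95 without knockdown 3, 0.96 without control 1, 0.28 without control 2 and 0.34 without control 3.

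RDH10 (gene ID 282852), which makes retinal from retinol, was steady in the control libraries. It had 68.96, 53.83 and 48.06 FPKM in knockdown libraries, against 51.74, 51.22 and 48.94 FPKM in control libraries. The lowest and the highest of the 6 values were both in knockdown libraries, so the groups overlapped. The means were 56.9 ± 10.8 FPKM in knockdown libraries and 50.6 ± 1.49 FPKM in control libraries (SD, n = 3 each), and the log2 difference of 0.15 (SE 0.16) was 0.01 without knockdown 1. It was 0.26 without knockdown 3. Within a library, CRABP2 exceeded RDH10 in all 3 knockdown libraries, with ratios of 1.80, 1.93 and 1.64, and lay below RDH10 in all 3 control libraries, with ratios of 0.912, 0.689 and 0.687.

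ALDH1A1 (gene ID 281615), which makes retinoic acid from retinal, had 5.29, 4.22 and 4.94 FPKM in knockdown libraries, against 2.91, 5.75 and 5.46 FPKM in control libraries. The control libraries held both the lowest and the highest value. The log2 difference was 0.06 (SE 0.23), and it was -0.19, of the opposite sign, without control 1. It was 0.01 without knockdown 1, 0.14 without knockdown 2, 0.21 without control 2 and 0.17 without control 3.

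RARA (gene ID 534280) was the only one of the 4 receptors among the 9 genes that reached a mean of 1 FPKM. It had 2.9, 3.41 and 3.31 FPKM in knockdown libraries, against 2.89, 3.02 and 2.86 FPKM in control libraries. The groups overlapped through knockdown 1, and the log2 difference was 0.10 (SE 0.15), with 0.15 without knockdown 1 and 0.06 without knockdown 2. RARG (gene ID 540425) had 0.06, 0.12 and 0.27 FPKM in knockdown libraries and 0.04, 0.25 and 0.19 FPKM in control libraries. RXRA (gene ID 507554) had 0.12, 0.09 and 0.03 FPKM in knockdown libraries and 0.10, 0.04 and 0.01 FPKM in control libraries. RXRB (gene ID 504943) had 0.07, 0.02 and 0.09 FPKM in knockdown libraries and 0.11, 0.05 and 0.17 FPKM in control libraries. The groups of RARG, RXRA and RXRB overlapped, and no fold change is given for values this near 0.

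**Figure D1:**
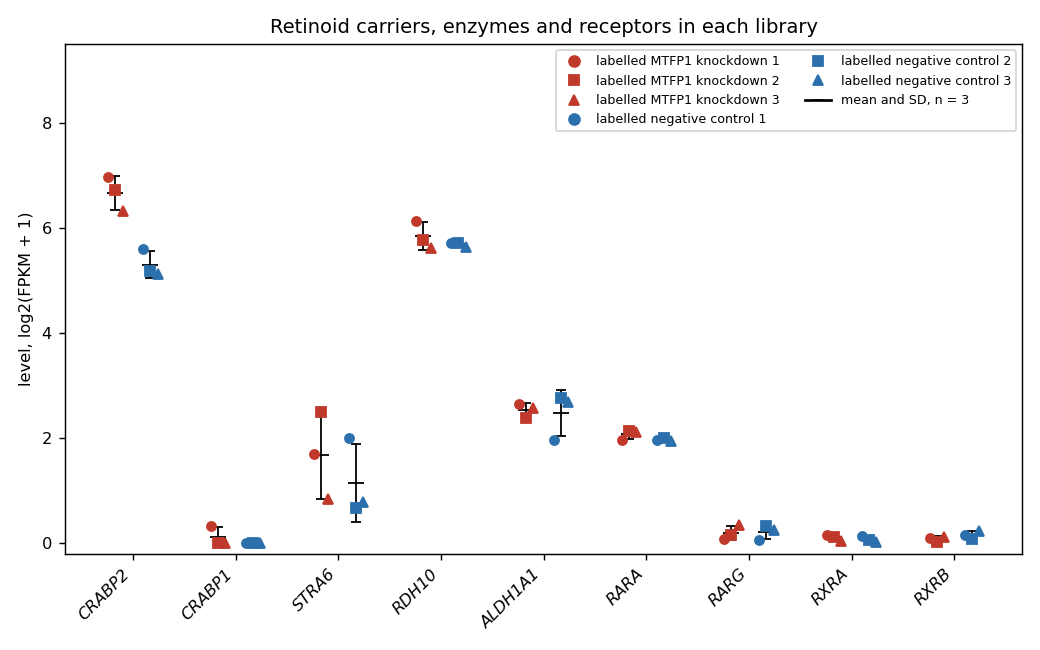
Level of each of the 9 genes as log2(FPKM + 1), with 1 point per library and the mean and SD of each group of 3 as black bars. CRABP2 separates the groups, RDH10 lies near 50 FPKM, and CRABP1, RARG, RXRA and RXRB lie near 0.

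In order of the mean over the 6 libraries, CRABP2 came first at 70.4 FPKM, followed by RDH10 at 53.8, ALDH1A1 at 4.76, RARA at 3.07 and STRA6 at 2.00 FPKM. RARG at 0.155, RXRB at 0.0850, RXRA at 0.0650 and CRABP1 at 0.0433 FPKM ended the order. The ranges over the libraries of CRABP2 and RDH10 overlapped, as did those of ALDH1A1, RARA and STRA6 and those of the last 4 genes. RDH10 lay above ALDH1A1 in every library, and STRA6 lay above RARG in every library. Against all 17325 genes, the mean of CRABP2 ranked 1481st and that of RDH10 ranked 1764th.

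The groups were compared over 9730 genes with a mean of at least 1 FPKM, of which 0 passed (0%) at an adjusted p under 0.05 with limma and Benjamini-Hochberg adjustment, the only tool run. Without adjustment, 635 genes or 6.53% of those tested had a p under 0.05. Among the 9 genes, 5 reached the filter and were part of this fit, and as over all genes 0 passed. Each of the 5 had a higher mean log2 value in knockdown libraries, beside 5275 higher and 4455 lower of all tested genes. The median log2 difference of the 5 was 0.15, against 0.02 over all tested genes. The groups did not overlap for 1 of the 5, CRABP2, where 5.97% of all tested genes lay higher in knockdown libraries without overlap and 5.05% lower. Nothing is read from these counts, because this same contrast chose CRABP2. The other 4 genes, CRABP1, RARG, RXRA and RXRB, lay below the filter, at no more than 0.27 FPKM in any library.

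The rest of the pathway was taken from a list by role of 61 further genes, of which 54 were found, 31 were tested and 7 were not analysed here. Of the 31 tested, 0 passed in either direction (limma with Benjamini-Hochberg adjustment, smallest adjusted p = 0.764). The retinol carrier RBP4 alone had an unadjusted p under 0.05, 1 gene or 3.23% beside 6.53% of all tested genes. That count was 0 under median-ratio or quantile scaling, with the replicate block, without knockdown 2 and without control 3. It was 2 with a pseudocount of 0.1, 2 without knockdown 1 and 4 of 54 genes with no filter. Over all tested genes, the counts in those settings were 622 of 9730, 763 of 9741 and 1041 of 17318. The pathway count stayed at 1 under the other alternatives. Of the 31, 16 had a higher and 15 a lower mean log2 value in knockdown libraries, with a median difference of 0.01. The groups did not overlap for 3 genes higher in knockdown libraries, RBP4, NR1H3 and NCOA2, which is 9.68% of the 31 beside 5.97% of all tested genes. They did not overlap for 1 lower gene, FABP5, which is 3.23% beside 5.05%. The 23 genes below the filter had at most 1.64 FPKM in any library.

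Among genes of retinol transport and storage, RBP4, which carries retinol in blood, had 43.32, 43.22 and 59.18 FPKM in knockdown libraries, against 40.81, 35.36 and 34.05 FPKM in control libraries. The separation was narrow, with knockdown 2 closest to control 1. RBP4 differed by 0.38 in log2 (SE 0.17) and did not pass (limma adjusted p = 0.764), and the difference was 0.23 without knockdown 3. LRAT, which esterifies retinol for storage, averaged 3.64 ± 0.611 FPKM in knockdown libraries and 4.24 ± 1.07 FPKM in control libraries (SD, n = 3 each). The retinol carrier RBP7 averaged 1.59 ± 0.292 FPKM in knockdown libraries and 1.36 ± 0.796 FPKM in control libraries. TTR, the blood protein that binds RBP4, averaged 1.04 ± 0.393 FPKM in knockdown libraries and 1.58 ± 1.64 FPKM in control libraries. The groups of LRAT, RBP7 and TTR overlapped.

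**Figure D2:**
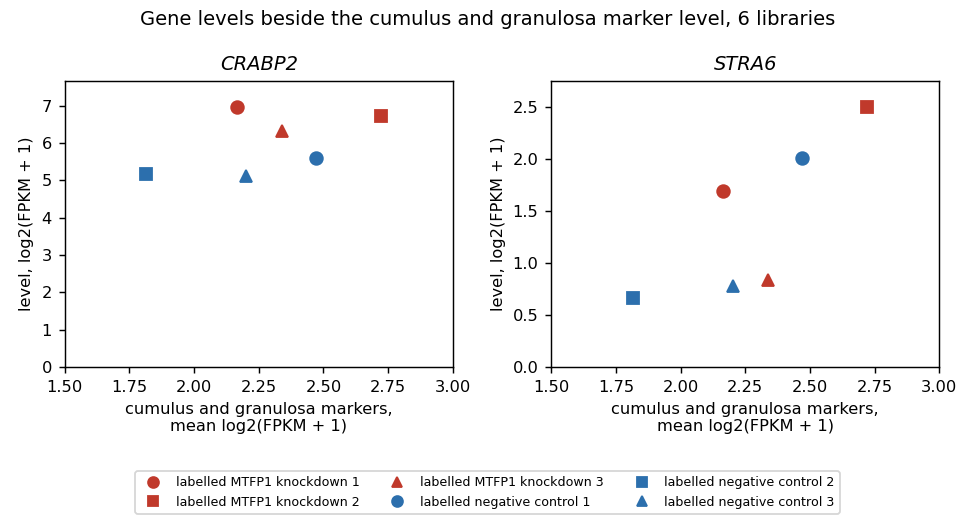
Level of CRABP2 and STRA6 in each library, as log2(FPKM + 1), against the mean log2(FPKM + 1) of 20 cumulus and granulosa markers. STRA6 was highest in knockdown 2, where the marker mean was highest, and lowest in control 2, where it was lowest, while CRABP2 was highest in knockdown 1.

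Averaged over the 20 markers of cumulus and granulosa cells, log2(FPKM + 1) was 2.16, 2.72 and 2.34 in knockdown libraries 1, 2 and 3, against 2.47, 1.82 and 2.2 in control libraries 1, 2 and 3. STRA6 was highest in knockdown 2 and lowest in control 2, the libraries with the highest and the lowest marker mean, and the part of the markers in its values was not tested. CRABP2 was highest in knockdown 1, which ranked 5th of the 6 libraries by marker mean and had the second highest summed level of the markers other than TIMP1. That sum was 200.3, 228.2 and 190.4 FPKM in knockdown libraries 1, 2 and 3, against 191.8, 168.8 and 162.2 FPKM in control libraries 1, 2 and 3. Control 1 alone exceeded a knockdown library. The part of these markers in the CRABP2 difference was not tested.

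Of the 9 retinol and retinal converting genes found besides RDH10, 4 were tested and 5 lay below the filter, at no more than 0.93 FPKM in any library. RDH11 averaged 156.3 ± 11.1 FPKM in knockdown libraries and 146.4 ± 14.9 FPKM in control libraries. RDH14 averaged 73.4 ± 7.02 FPKM in knockdown libraries and 72.9 ± 9.36 FPKM in control libraries. RDH12 averaged 74.5 ± 15.2 FPKM in knockdown libraries and 63.8 ± 23.7 FPKM in control libraries (SD, n = 3 each). RDH11, RDH12 and RDH14, which are known mainly as enzymes that reduce retinal to retinol, had means above that of RDH10 in both groups, and their own groups overlapped. The alcohol dehydrogenase ADH4 averaged 5.86 ± 1.25 FPKM in knockdown libraries and 6.01 ± 1.16 FPKM in control libraries. Values of such paralogs are uncertain, because the handling of reads that fit several genes is not given in these sources.

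Among the genes that make and break down retinoic acid, ALDH1A2, another retinal dehydrogenase, had 8.96, 5.31 and 6.55 FPKM in knockdown libraries and 7.23, 9.46 and 4.77 FPKM in control libraries. Its groups overlapped, as did its range over the libraries and that of ALDH1A1. CYP26A1, the enzyme that breaks down retinoic acid and is itself induced by it, had 4.25, 2.16 and 1.44 FPKM in knockdown libraries, against 2.13, 0.99 and 1.78 FPKM in control libraries. The groups overlapped, and the log2 difference was 0.41 (SE 0.30, limma adjusted p = 0.884). The other 4 genes of this step had at most 1.29 FPKM in any library.

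By FPKM, the most abundant retinoic acid receptor in these libraries was RARB, which is not among the 9 genes. As for the paralogs above, the handling of reads that fit several of the receptor genes is not given. RARB had 91.92, 68.66 and 81.31 FPKM in knockdown libraries, against 109.38, 92.33 and 72.97 FPKM in control libraries. It held 96.9%, 95.1% and 95.8% of the summed FPKM of RARA, RARB and RARG in knockdown libraries and 97.4%, 96.6% and 96.0% in control libraries. The groups overlapped, and the log2 difference of RARB was -0.17 (SE 0.18, limma adjusted p = 0.914). RXRA and RXRB together summed to 0.190, 0.110 and 0.120 FPKM in knockdown libraries and 0.210, 0.0900 and 0.180 FPKM in control libraries, so the transcripts of these partners lay far below those of RARB in every library. RXRG, the third retinoid X receptor gene, was not analysed here.

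**Figure D3:**
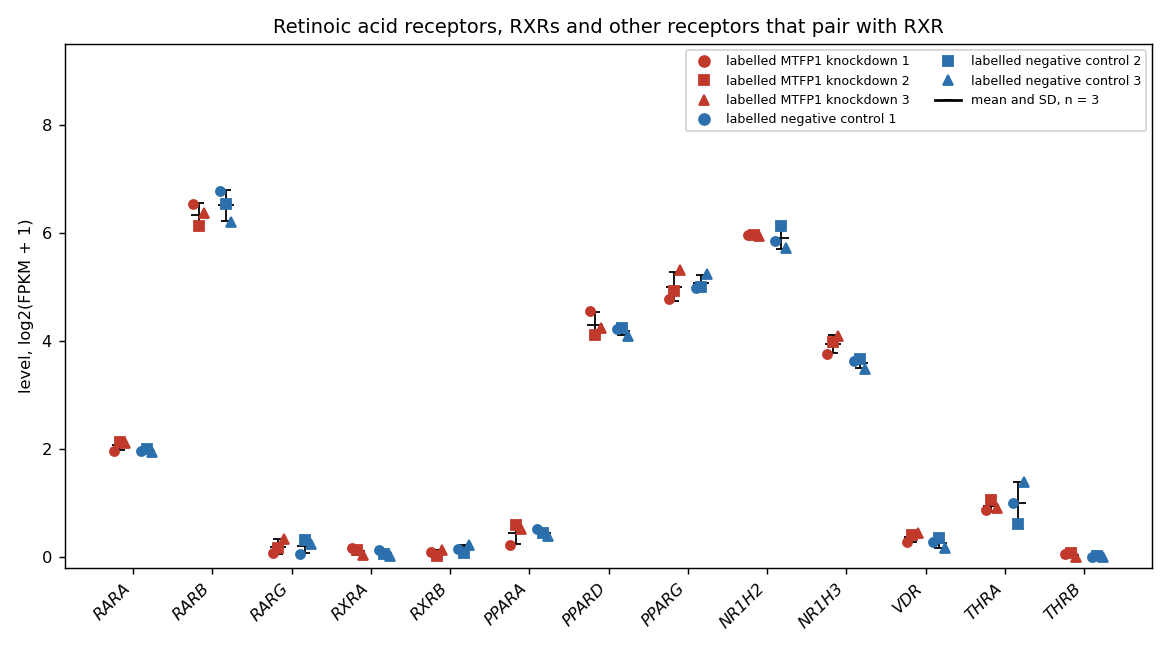
Level of the retinoic acid receptors, of RXRA and RXRB and of 8 other nuclear receptors that pair with retinoid X receptors, as log2(FPKM + 1), with 1 point per library and the mean and SD of each group of 3 as black bars. RARB and NR1H2 were the highest, at means over the 6 libraries of 86.1 and 60.1 FPKM, and RXRA and RXRB lay near 0.

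Of 8 other nuclear receptors that bind DNA with a retinoid X receptor, 4 were tested, NR1H2, PPARG, PPARD and NR1H3, and 4 lay below the filter, down to a mean of 0.02 FPKM for the thyroid hormone receptor THRB. The oxysterol receptor NR1H2 averaged 60.9 ± 0.411 FPKM in knockdown libraries and 59.2 ± 8.62 FPKM in control libraries. The fatty acid receptor PPARG averaged 31.6 ± 6.38 FPKM in knockdown libraries and 32.8 ± 3.55 FPKM in control libraries, and PPARD averaged 18.9 ± 3.36 FPKM in knockdown libraries and 17.3 ± 0.981 FPKM in control libraries (SD, n = 3 each). The groups of NR1H2, PPARG and PPARD overlapped. NR1H3, the other oxysterol receptor, had 12.55, 14.88 and 16.02 FPKM in knockdown libraries, against 11.32, 11.79 and 10.25 FPKM in control libraries. Its groups did not overlap, and NR1H3 differed by 0.35 in log2 (SE 0.15), short of the threshold (limma adjusted p = 0.764).

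Coregulators of these receptors showed small differences in both directions, with 5 of 10 tested genes higher and 5 lower in knockdown libraries and 0 past the adjusted threshold. The deacetylase HDAC3, part of the corepressor complex, averaged 242.2 ± 26.3 FPKM in knockdown libraries and 216.9 ± 6.88 FPKM in control libraries. TBL1XR1 of the same complex averaged 60.7 ± 6.42 FPKM in knockdown libraries and 64.0 ± 7.18 FPKM in control libraries, and the corepressor NCOR1 averaged 34.4 ± 7.06 FPKM in knockdown libraries and 38.4 ± 10.2 FPKM in control libraries (SD, n = 3 each). The coactivator NCOA2 had 14.67, 14.64 and 14.71 FPKM in knockdown libraries, against 12.53, 13.37 and 10.17 FPKM in control libraries. It was nearly constant in the knockdown libraries and higher there, by 0.28 in log2 (SE 0.15), which did not pass (limma adjusted p = 0.829).

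Of 12 genes known to respond to retinoic acid in other cells, 5 were tested, 2 of them higher and 3 lower in knockdown libraries, and 0 passed. RARRES1, named for its induction by retinoids, had 60.53, 67.43 and 136.08 FPKM in knockdown libraries, against 106.98, 118.29 and 98.75 FPKM in control libraries. Knockdown 3 was the highest of all 6 and the other two knockdown libraries were the lowest. The homeobox gene CDX1 averaged 83.7 ± 10.1 FPKM in knockdown libraries and 77.7 ± 4.24 FPKM in control libraries. The homeobox gene MEIS2 averaged 10.5 ± 1.23 FPKM in knockdown libraries and 11.0 ± 1.16 FPKM in control libraries. The orphan nuclear receptor NR2F2 averaged 3.01 ± 0.671 FPKM in knockdown libraries and 3.59 ± 0.895 FPKM in control libraries (SD, n = 3 each). STRA8, a gene of early meiosis that responds to retinoic acid in the mouse, was listed at 0 in every library except knockdown 3, at 0.05 FPKM.

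**Figure D4:**
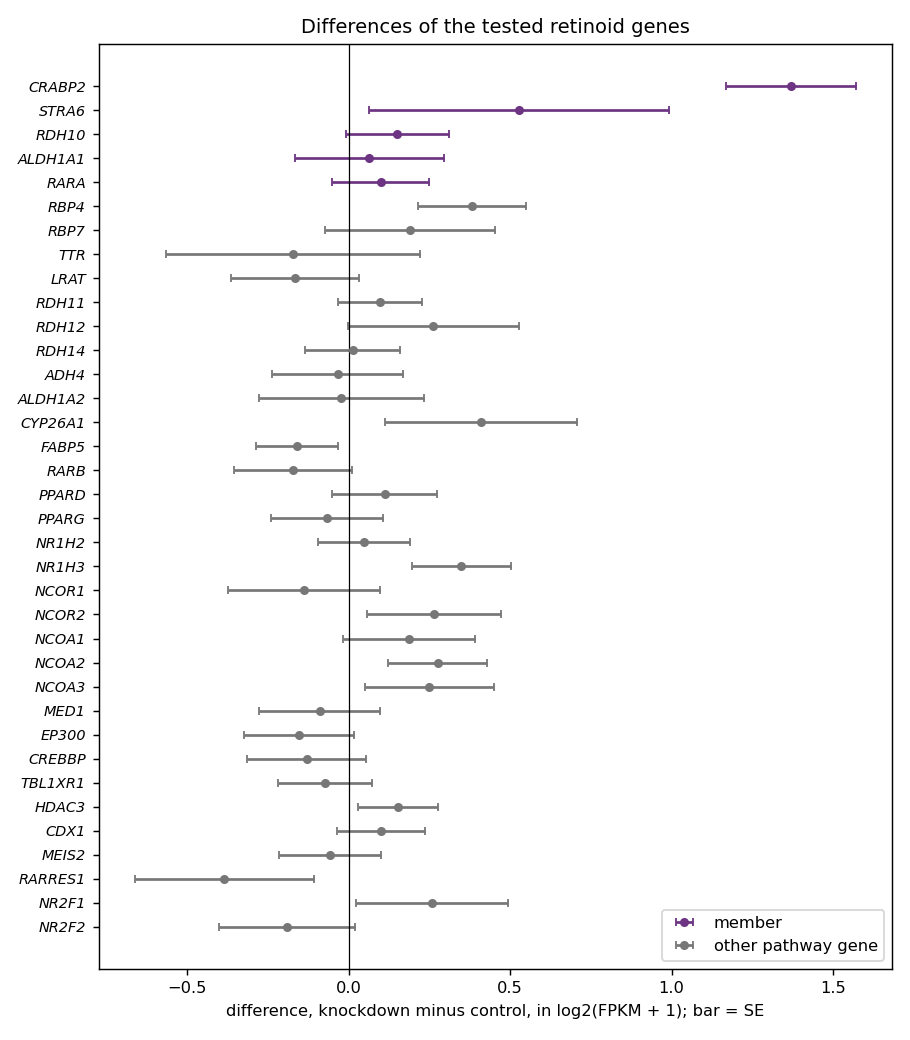
Difference in log2(FPKM + 1) between knockdown and control libraries for the 5 tested genes of the 9 (purple) and the 31 other tested pathway genes (grey), with the SE as bars and genes in order of role. CRABP2 at 1.37 lies farthest from 0, and the grey points lie between -0.38 for RARRES1 and 0.41 for CYP26A1.

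The genes whose values over the 6 libraries were most like those of CRABP2 were searched among 9265 tested genes by the Pearson correlation of log2(FPKM + 1), given as a description of these libraries. They were the vesicle fusion protein VTI1A (r = 0.995), the heat shock transcription factor HSF2 (0.993), the endosomal sorting protein UBAP1 (0.983), the centrosomal protein CEP78 (0.982) and the calcium-dependent lipid binding protein CPNE1 (0.981). Such values carry the difference between the groups that chose CRABP2, and 93 genes had an r above 0.9. VTI1A had 4.36, 4.15 and 3.73 FPKM in knockdown libraries and 3.15, 3.03 and 2.9 FPKM in control libraries, the same order of libraries as for CRABP2. Its log2 difference was 0.33 (SE 0.15), smaller than the 1.37 of CRABP2. With the group means removed, the closest genes were HASPIN, NFATC3 and PJA2, each at an r of 0.997, and 460 genes had an r above 0.9. HASPIN, a histone kinase of mitosis and meiosis, had 6.06, 4.99 and 3.80 FPKM in knockdown libraries and 6.04, 4.61 and 4.50 FPKM in control libraries, overlapping between the groups. CRABP1, RARG, RXRA and RXRB were not compared, lying below the filter. RDH10, ALDH1A1, STRA6 and RARA were not among the genes named, and RDH10 ranked 1210th over the 6 libraries with an r of 0.655.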

How the data were processed

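Total RNA of oocytes was extracted with TRIzol and made into mRNA libraries with a BGI kit, per the labels' protocols. For each of 6 libraries the authors deposited FPKM values for the same 17325 genes. Build ARS-UCD1.2 and the tools RSEM 1.3.1, DESeq2 1.4.5, HISAT2 2.2.1 and Bowtie2 2.3.4.3 are listed, without roles, per the submitters' processing notes. Gene names come from the files, with 24 symbols turned into dates restored from the gene ID through RefSeq (ARS-UCD2.0, 17087 IDs matched). Because the builds differ, no coordinates are given. Read totals are unknown. The commonest log2 ratio of low values (0.2 to 2 FPKM) lay within 0.1 of 0 in 14 of 15 library pairs.

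Groups follow the titles. Values were fitted as log2(FPKM + 1) for the 9730 genes whose mean FPKM reached 1, with limma 3.58.1 in R 4.3.3 (trend, group only, two-sided), and Benjamini-Hochberg adjustment at 0.05. The fit was also run on simulated independent genes, 200 of them changed, which does not cover genes that vary together. Alternatives were pseudocounts of 0.1 and 5, no filter or a mean of 5, 3 scalings, a replicate block and leaving out each library. Members and lists were chosen with earlier results of these data known. Named are all members, MTFP1, the 4 pathway genes with the smallest p and the genes most like CRABP2. The most abundant tested genes (up to 4) of each pathway list and of the cumulus and granulosa markers are also named. Oocyte markers are given as a sum, and markers of theca, stroma, endothelium and leukocytes are not reported here. Some pathway genes are not reported here. FSHR, SPARC, INHA, TNFAIP6, THRB, STRA8 and the genes beside CRABP2 were added after their values were seen. Plots were made with Python 3.11.15 and matplotlib 3.10.9.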

Additional observations from a re-analysis of the deposited data

How the results depend on the processing

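The CRABP2 log2 difference of 1.37 kept its direction under all 14 alternatives. The groups of CRABP2 did not overlap, so no pseudocount or left-out library could turn the sign. Filters and the block leave the difference itself unchanged, so the kept direction is a description only. The difference lay between 1.29 and 1.39 under other pseudocounts, filters and scalings and between 1.22 (without knockdown 1) and 1.54 (without knockdown 3) when 1 library was left out. Of the other tested members, RDH10, STRA6 and RARA also kept their sign, and ALDH1A1 turned under 1 of 13 alternatives, to -0.19 without control 1. STRA6 ran from 0.22 with a pseudocount of 5 to 0.83 with a pseudocount of 0.1. The filter of a mean FPKM of at least 5 removed STRA6, ALDH1A1 and RARA. The count of all genes past the adjusted threshold was 0 with all libraries, 2 with a mean of at least 5 FPKM or with FPKM rescaled to equal sums, and 0 to 2 when 1 library was left out. The count of other pathway genes that passed stayed at 0 under all 14 alternatives. The fit with the replicate number as a block left 0 genes called and 630 at an unadjusted p under 0.05, against 635 without it, and the CRABP2 difference at 1.37. Deviations from the group mean had correlations across genes of 0.03, -0.16 and 0.07 between libraries of the same number, for numbers 1, 2 and 3. Between libraries of different numbers they ran from -0.26 to 0.23. With 3 libraries per group, these values cannot decide whether libraries of the same number belong together. CRABP2 itself fell from number 1 to number 3 in both groups, and its SE was 0.14 with the block against 0.20 without it. The median log2 difference of all tested genes was 0.02, and -0.02 after quantile normalization. Depth limits the genes near 0, since FPKM carries no read totals and gives no detection floor.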

Other observations

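The protein-coding genes next to CRABP2 in the RefSeq gene order, METTL25B and ISG20L2 on one side and NES and BCAN on the other, were low in all libraries, unlike CRABP2. ISG20L2, an exonuclease of ribosome formation, had 0.67, 1.4 and 0.10 FPKM in knockdown libraries and 0.27, 0.34 and 0 FPKM in control libraries. The intermediate filament gene NES had 0.78, 1.00 and 0.90 FPKM in knockdown libraries and 0.89, 0.43 and 0.63 FPKM in control libraries. METTL25B averaged 0.290 ± 0.208 FPKM in knockdown libraries and 0.240 ± 0.246 FPKM in control libraries, and the matrix proteoglycan BCAN averaged 0.313 ± 0.127 FPKM in knockdown libraries and 0.377 ± 0.107 FPKM in control libraries (SD, n = 3 each). The groups overlapped for all 4 neighbours, and none reached the mean of 1 FPKM needed for the test.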
